A study of Homo sapiens with 8 samples.

Results

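The BCL2 family genes measured here were the 10 genes BCL2L11, BBC3, PMAIP1, BMF, BID, BAX, BAK1, MCL1, BCL2L1 and BCL2, out of 18417 genes on the array. A gene was taken if a probe set of the deposited table was annotated with it alone, and each of the 10 members had exactly 1 such probe set. Expression was measured on 8 Affymetrix arrays, 2 in each of 4 groups. The groups were HCC1937 with COH29 (10 µM for 24 h), HCC1937 control, HCC1937+BRCA1 with COH29 (10 µM for 24 h) and HCC1937+BRCA1 control. HCC1937 is a breast cancer line that the labels call BRCA1 deficient and the series design describes as carrying truncated BRCA1. HCC1937+BRCA1 is the same line with exogenous wild-type BRCA1. The labels give neither the promoter that drives this gene nor whether the line is 1 clone. COH29 is an inhibitor of ribonucleotide reductase. All groups were grown in RPMI medium with fetal bovine serum. The treatment field gives the same COH29 exposure for every sample, controls included, so controls were identified by their treatment characteristic and title, and a vehicle is not named. Values are log2 intensities after RMA.

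Proteins of the BCL2 family decide whether the outer membrane of the mitochondrion is permeabilised, the step that releases cytochrome c and starts the caspase cascade. BAX and BAK1 encode the effectors that form the pore. The anti-apoptotic proteins MCL1, BCL-XL (gene BCL2L1) and BCL2 bind and hold the effectors and their activators. The BH3-only proteins BIM (BCL2L11), PUMA (BBC3), NOXA (PMAIP1), BMF and BID carry the stress signal, either by occupying the anti-apoptotic proteins or by activating BAX and BAK1. NOXA binds mainly MCL1. Each value below is the transcript signal of a whole gene, so splice forms of opposite function, known for BCL2L1 and MCL1, are not told apart.

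Across genes, r was 0.996 to 0.9974 between arrays of the same group and 0.9552 to 0.9875 between arrays of different groups. BRCA1 itself had 10.43 ± 0.04 (mean log2 intensity ± SD, n = 2 arrays) in HCC1937 with COH29, 10.55 ± 0.13 in HCC1937 control, 10.16 ± 0.12 in HCC1937+BRCA1 with COH29 and 10.46 ± 0.05 in HCC1937+BRCA1 control. This signal does not check the line labels, since the sources used here do not say how well the probe set reads the exogenous transcript. Of 6 epithelial markers, 5 (EPCAM, CDH1, KRT7, KRT8, KRT18) lay at or above percentile 97.5 of all genes on every array, and KRT19 at 46.0 to 60.3. Of 6 markers of other cells, PTPRC was at percentile 1.5 to 4.4 and CD3E at 8.6 to 16.2. CD79A (28.3 to 33.6), COL3A1 (31.7 to 35.7) and COL1A1 (48.1 to 54.3) lay higher, and PECAM1 ran from 28.8 to 71.8. PECAM1, alone of the 6, changed with COH29 and fell in both lines. The summed linear intensity of the 6 markers was 664 to 753 in HCC1937 with COH29, 1100 to 1120 in HCC1937 control, 652 to 664 in HCC1937+BRCA1 with COH29 and 729 to 781 in HCC1937+BRCA1 control. Without PECAM1 these sums were 495 to 596, 461 to 495, 556 to 561 and 459 to 500 in the same order. The part of these marker shifts in the results below was not tested. In such bulk samples, fewer cells of a kind and less RNA per cell cannot be told apart. Whether replicate arrays stand for separate cultures is not stated in the labels. The p-values then measure only how far these arrays spread, which may be technical.

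Promoter sequences are shown for the members with the largest rises, BCL2L11 and PMAIP1, and for BCL2L1, the one with the largest fall. RefSeq (GRCh38.p14) gave the 250 bases before the transcription start for 9 of the 10 members, with no entry for MCL1 in the table used. BCL2L1 has 2 starts there, and both are shown. The sequences run 5′ to 3′ on the gene's strand, and capitals mark matches to any of 5 motifs, described after them.
BCL2L11 (chr2:111120664-111120913, plus strand): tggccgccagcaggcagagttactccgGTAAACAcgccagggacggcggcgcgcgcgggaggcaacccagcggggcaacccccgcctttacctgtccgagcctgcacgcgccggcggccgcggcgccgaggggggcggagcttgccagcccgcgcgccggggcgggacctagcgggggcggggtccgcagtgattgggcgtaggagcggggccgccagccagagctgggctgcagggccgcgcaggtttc
PMAIP1 (chr18:59899746-59899995, plus strand): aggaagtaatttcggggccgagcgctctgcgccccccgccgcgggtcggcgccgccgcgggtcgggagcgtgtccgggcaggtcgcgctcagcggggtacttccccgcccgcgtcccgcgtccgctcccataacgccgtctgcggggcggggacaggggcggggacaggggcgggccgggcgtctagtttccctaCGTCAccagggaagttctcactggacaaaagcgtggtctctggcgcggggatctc
BCL2L1, upstream start (chr20:31723964-31724213, minus strand): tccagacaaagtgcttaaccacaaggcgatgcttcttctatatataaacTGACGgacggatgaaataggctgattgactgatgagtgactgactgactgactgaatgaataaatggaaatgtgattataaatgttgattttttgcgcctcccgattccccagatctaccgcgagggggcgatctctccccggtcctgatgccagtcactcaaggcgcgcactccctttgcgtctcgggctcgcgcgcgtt
BCL2L1, downstream start (chr20:31722869-31723118, minus strand): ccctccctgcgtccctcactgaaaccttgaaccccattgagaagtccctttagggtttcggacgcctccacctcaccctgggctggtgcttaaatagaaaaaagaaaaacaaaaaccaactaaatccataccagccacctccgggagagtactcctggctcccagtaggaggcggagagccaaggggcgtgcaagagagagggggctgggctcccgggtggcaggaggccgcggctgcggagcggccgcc
The capitals in the BCL2L11 promoter are a match to the forkhead core TGTTTAC on the opposite strand, 223 to 217 bases before the start. Those of PMAIP1 are an ATF/CRE core (TGACG) on the opposite strand, 55 to 51 bases before the start, and the upstream BCL2L1 promoter holds the same core 201 to 197 bases before its start. Each motif was searched on both strands. The forkhead core occurred in 2.98% of 35116 promoters of the same length and the ATF/CRE core in 21.2%. The ATF/CRE core occurred in 5 of the 9 members with an entry (PMAIP1, BMF, BAX, BCL2L1, BCL2) and the forkhead core in 1. Members with several starts have several promoters (BMF 2, BCL2L1 2 and BID 5), and counted over the 15 promoters of the members the ATF/CRE core was in 5 and the forkhead core in 1. The C/EBP-ATF composite TGATGNAA, in 3.14% of all promoters, matched 0 members. The AP-1 site TGANTCA, in 6.57% of all promoters, matched 1 member (BBC3), and the hypoxia response core ACGTG, in 18.5%, matched 3 (BBC3, BAX and BID). Over the 15 member promoters the AP-1 site was in 1 and the hypoxia response core in 4. ACGTG can overlap TGACG, as it does in BAX. A GC box (GGGCGG, not in capitals), in 42.6% of all promoters, matched 6 members (BCL2L11, PMAIP1, BMF, BAX, BAK1, BID) and 9 of the 15 member promoters. Some BID promoters overlap, so 1 site can count in 2 of them, as it does for the hypoxia response core and GC boxes of BID. BCL2L11 and PMAIP1 promoters had 76.8% and 72.8% G and C, the 2 of BCL2L1 had 50.0% and 60.4%, and the median of all promoters was 58.0%. A match describes letters only and shows no binding.

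In HCC1937, COH29 raised 3 of the 10 members, the BH3-only genes BCL2L11 and PMAIP1 and the anti-apoptotic gene MCL1, and lowered 0 (limma, Benjamini-Hochberg adjusted p under 0.05). At an unadjusted p under 0.05, BMF (0.0239, higher) and BID (0.0125, lower) are added. Over all genes, 10.2% were called higher and 12.5% lower in this comparison. In HCC1937+BRCA1, COH29 raised 4 members, the same 3 and the BH3-only gene BBC3, and lowered 4, the anti-apoptotic BCL2L1 and BCL2, the effector BAK1 and the BH3-only BID. Over all genes, 13.6% were called higher and 20.1% lower there. Of all genes, 33.8% had both HCC1937 COH29 arrays above both controls and 28.6% had both below, so arrays that do not overlap are common in these data. The members' arrays did not overlap for 5 genes higher and 4 lower in HCC1937. In HCC1937+BRCA1 they did not overlap for 5 higher and 5 lower, beside 35.4% and 33.0% of all genes. With each array shifted to one median the 4 and 4 became 5 and 3, and after cyclic loess 4 and 2, while the share of higher calls among all called genes became 54.4% and 43.3% in place of 40.3%. The median shift places the median change of all genes at 0.11 on the log2 scale, against 0.04 as deposited. Leaving out COH29 replicate 1 of HCC1937+BRCA1, its control replicate 2, or the moderation left 2 of the 4 lower. Among the 5 BH3-only genes COH29 gave a median log2 change of 0.22 in HCC1937, against 0.38 in HCC1937+BRCA1, and among the 2 effectors -0.20 and -0.30. Together these 7 pro-apoptotic members had median changes of 0.19 and 0.22. For the 3 anti-apoptotic members it was -0.14 and -0.62, beside 0.04 for all genes in each line. Pro- and anti-apoptotic members thus did not each move one way, and both classes held genes that rose and genes that fell in HCC1937+BRCA1.

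**Figure D1:**
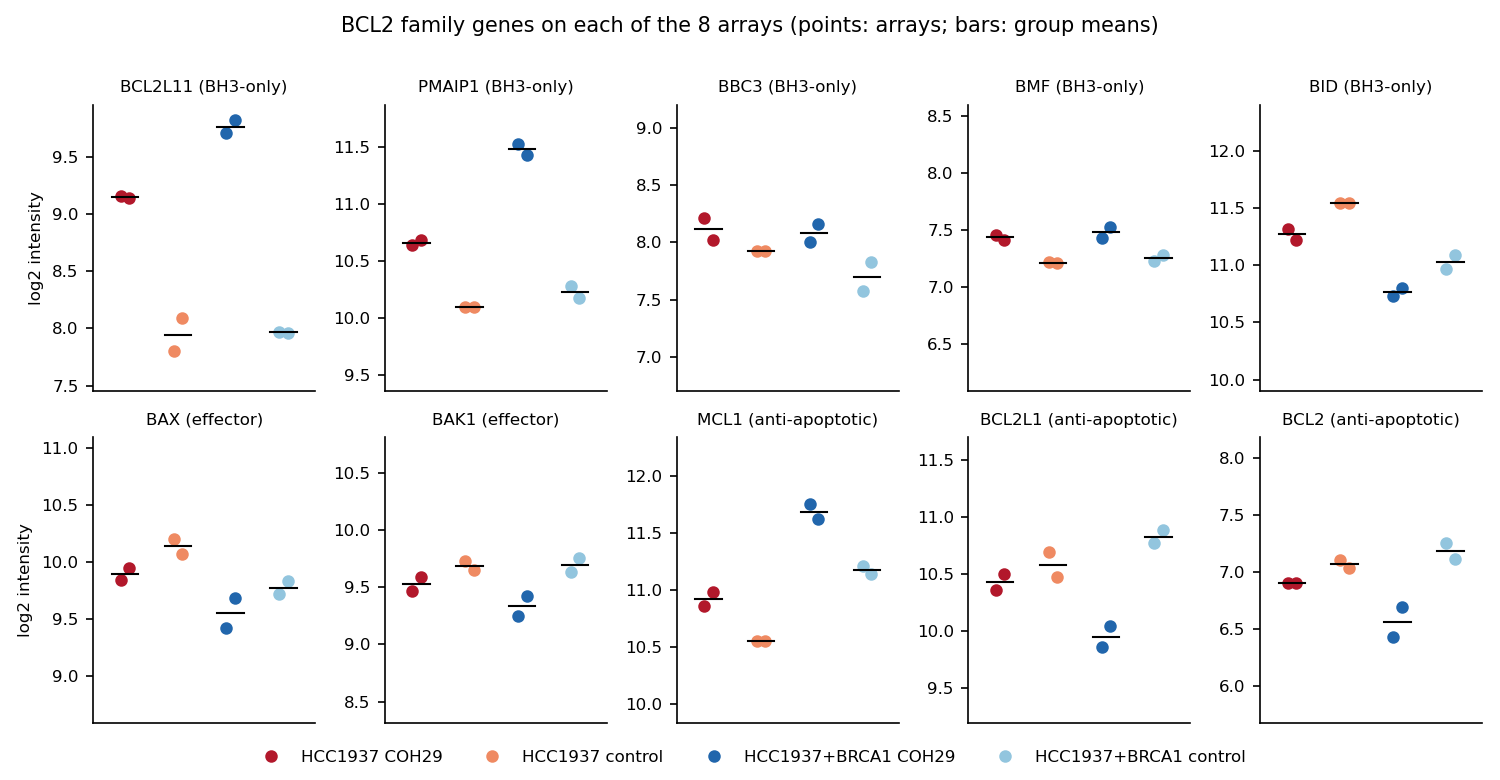
Log2 intensity (vertical axis, each panel spanning the same number of log2 units) of the 10 BCL2 family genes on the 8 arrays; points are arrays, black bars group means, and the groups from left to right are HCC1937 COH29, HCC1937 control, HCC1937+BRCA1 COH29 and HCC1937+BRCA1 control. BCL2L11 and PMAIP1 are highest in HCC1937+BRCA1 with COH29 (means 9.76 and 11.47), where BCL2L1 and BCL2 are lowest (9.95 and 6.56).

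BCL2L11 encodes BIM, which can bind every anti-apoptotic member and activate the effectors directly. Its log2 intensity (probe set 8044375) was 9.16 and 9.14 on the 2 HCC1937 arrays with COH29, against 7.80 and 8.09 on the HCC1937 controls. On the HCC1937+BRCA1 arrays it was 9.71 and 9.82 with COH29, against 7.97 and 7.96 without. The controls of both lines lay together, and the COH29 arrays of each line lay above them without overlap. BCL2L11 thus rose by 1.21 ± 0.11 in HCC1937 (log2 change ± SE, 2.31-fold, limma adjusted p = 0.000133) and by 1.8 ± 0.11 in HCC1937+BRCA1 (3.48-fold, adjusted p = 8.96e-06). It moved from about the middle to the upper part of all genes, between percentile 48.1 on the lowest array and 79.6 on the highest. In order, its level was highest in HCC1937+BRCA1 with COH29, then in HCC1937 with COH29, and the 2 control groups did not differ beyond their spread.

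PMAIP1 encodes NOXA, the BH3-only protein that binds MCL1 and promotes its breakdown. It had (probe set 8021470) 10.64 and 10.68 with COH29 and 10.10 and 10.10 without in HCC1937, and 11.52 and 11.43 with COH29 and 10.28 and 10.18 without in HCC1937+BRCA1. Every COH29 array lay above every control array, and those of HCC1937+BRCA1 above those of HCC1937. The gene rose by 0.56 ± 0.08 in HCC1937 (1.48-fold, limma adjusted p = 0.00155) and by 1.24 ± 0.08 in HCC1937+BRCA1 (2.36-fold, adjusted p = 1.46e-05). The rises of BCL2L11 and PMAIP1 stayed past the threshold in both lines under each of the 17 alternatives. Across these the change of PMAIP1 ran from 0.54 to 0.59 in HCC1937 and from 1.19 to 1.35 in HCC1937+BRCA1.

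BBC3, the gene of PUMA, a BH3-only protein that binds all main anti-apoptotic members, had smaller changes. Its log2 intensity (probe set 8037872) was 8.21 and 8.02 with COH29 and 7.92 and 7.92 without in HCC1937, where its change was 0.19 ± 0.11 (limma adjusted p = 0.271). In HCC1937+BRCA1 it was 8.0 and 8.16 with COH29, against 7.57 and 7.83 without, a rise of 0.38 ± 0.11 (adjusted p = 0.0306). The arrays did not overlap in either line, but the 2 controls of HCC1937+BRCA1 lay further apart than the nearest COH29 and control arrays of that line. The call was lost without COH29 replicate 2 of HCC1937+BRCA1 (0.30, adjusted p = 0.163) or control replicate 1 (0.25, adjusted p = 0.205), without moderation (adjusted p = 0.11) and with only the 4 arrays of the line (adjusted p = 0.0525).

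BMF, a BH3-only gene whose protein is held at the cytoskeleton in resting cells, had (probe set 7987454) 7.46 and 7.41 with COH29 and 7.22 and 7.21 without in HCC1937. In HCC1937+BRCA1 it had 7.43 and 7.53 with COH29, against 7.23 and 7.28 without. Its changes of 0.22 ± 0.08 in each line missed the threshold (limma adjusted p = 0.085 in HCC1937 and 0.0644 in HCC1937+BRCA1), although no arrays overlapped. Leaving out dim genes, shifting arrays to one median or dropping the moderation placed both changes past it (adjusted p between 0.0187 and 0.0475).

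BID, whose protein is cut by caspase 8 to become active, went the other way from BCL2L11. It had (probe set 8074261) 11.32 and 11.22 with COH29 and 11.54 and 11.54 without in HCC1937, and 10.73 and 10.80 with COH29 and 10.97 and 11.09 without in HCC1937+BRCA1. All 4 HCC1937 arrays lay above the 4 arrays of the other line, and within each line the COH29 arrays lay below the controls. The change was -0.27 ± 0.09 in HCC1937 (limma adjusted p = 0.0537) and -0.26 ± 0.09 in HCC1937+BRCA1 (adjusted p = 0.0472), so the call in the second line rested on a margin. It was lost without either HCC1937+BRCA1 COH29 array (adjusted p = 0.169 and 0.0893), either control array of that line (0.0701 and 0.201) or either HCC1937 control array (0.0758). It was also lost with arrays shifted to one median (-0.19, adjusted p = 0.101), after cyclic loess (-0.16, adjusted p = 0.195), without moderation (0.0526) and with only the 4 arrays of the line (0.0817).

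The effector genes had small negative estimates with COH29, and 1 of the 4 tests passed. BAX had (probe set 8030158) 9.84 and 9.95 with COH29 and 10.20 and 10.07 without in HCC1937, and 9.42 and 9.68 with COH29 and 9.72 and 9.83 without in HCC1937+BRCA1. The change of -0.24 ± 0.11 in HCC1937 (limma adjusted p = 0.158) and of -0.23 ± 0.11 in HCC1937+BRCA1 (adjusted p = 0.141) did not pass the threshold. BAK1 had (probe set 8125766) 9.47 and 9.59 with COH29 and 9.73 and 9.65 without in HCC1937, a change of -0.16 ± 0.10 (adjusted p = 0.281). In HCC1937+BRCA1 it had 9.25 and 9.42 with COH29, against 9.63 and 9.76 without, a change of -0.36 ± 0.10 (adjusted p = 0.02). This call was lost without HCC1937+BRCA1 COH29 replicate 1 (-0.28, adjusted p = 0.115) or control replicate 2 (-0.29, adjusted p = 0.106), after cyclic loess (-0.25, adjusted p = 0.066) and without moderation (adjusted p = 0.0625).

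The anti-apoptotic genes split. MCL1, a short-lived protein that restrains BAK1 and is the main partner of NOXA, had (probe set 7919751) 10.86 and 10.98 with COH29 and 10.55 and 10.55 without in HCC1937. In HCC1937+BRCA1 its log2 intensity was 11.75 and 11.62 with COH29, against 11.21 and 11.14 without. All 4 HCC1937+BRCA1 arrays lay above the 4 HCC1937 arrays, and the drug raised the level within each line. MCL1 rose by 0.37 ± 0.09 in HCC1937 (1.29-fold, limma adjusted p = 0.0164) and by 0.51 ± 0.09 in HCC1937+BRCA1 (1.42-fold, adjusted p = 0.00203). In HCC1937 the call was lost without COH29 replicate 2 (0.31, adjusted p = 0.075), control replicate 1 (adjusted p = 0.0808) or control replicate 2 (adjusted p = 0.0885).

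BCL2L1, the gene of BCL-XL, had (probe set 8065569) 10.36 and 10.50 with COH29 and 10.69 and 10.47 without in HCC1937. These arrays overlapped, and the change of -0.14 ± 0.11 did not pass the threshold (limma adjusted p = 0.392). In HCC1937+BRCA1 it had 9.86 and 10.04 with COH29, against 10.77 and 10.88 without, with no overlap. There its change was -0.87 ± 0.11 (a fall to 0.548 of the control level, adjusted p = 0.000379). BCL2, the founding member of the family, had (probe set 8023646) 6.90 and 6.90 with COH29 and 7.10 and 7.03 without in HCC1937, a change of -0.17 ± 0.10 (adjusted p = 0.287). In HCC1937+BRCA1 it had 6.43 and 6.69 with COH29, against 7.25 and 7.11 without. Its change there was -0.62 ± 0.10 (a fall to 0.65 of the control level, adjusted p = 0.00173). Both falls in HCC1937+BRCA1 stayed past the threshold under each of the 17 alternatives, between -0.96 and -0.76 for BCL2L1 and between -0.75 and -0.49 for BCL2. BCL2 lay between percentile 27.4 and 41.1 of all genes.

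**Figure D2:**
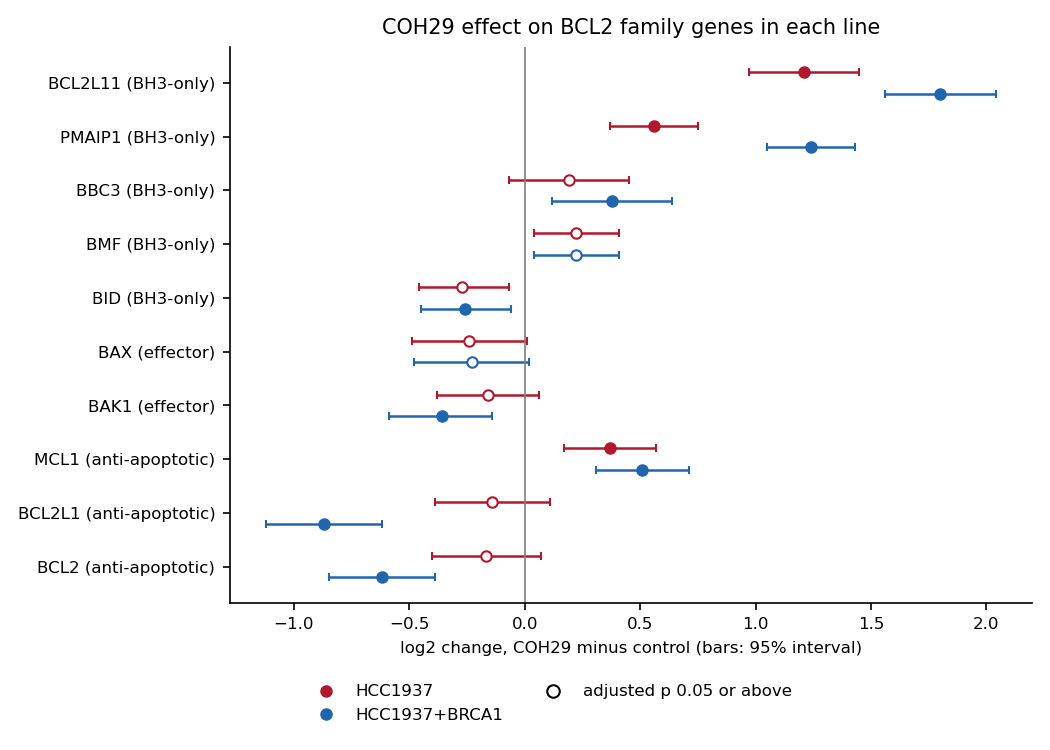
Log2 change with COH29 (COH29 minus control, horizontal axis) of the 10 genes in HCC1937 and HCC1937+BRCA1; points are estimates from 2 arrays per group, bars 95% intervals of the moderated fit, and filled points passed an adjusted p of 0.05. BCL2L11 and PMAIP1 lie furthest right in both lines, and BCL2L1 and BCL2 furthest left in HCC1937+BRCA1 (-0.87 and -0.62).

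No level of one probe set can be set against that of another. Members were therefore compared by the shift, on the same array, of a BH3-only gene relative to an anti-apoptotic gene. The control mean of the line was set at 0. Only BCL2L11, PMAIP1 and BBC3 were followed, the BH3-only genes called higher with COH29 in HCC1937+BRCA1. BID, with changes of -0.27 in HCC1937 and -0.26 in HCC1937+BRCA1, and BMF (0.22 in each line) were left out. The difference of BCL2L11 and BCL2L1 stood at 1.43 and 1.28 on the HCC1937 arrays with COH29, against -0.26 and 0.26 on the controls. On the HCC1937+BRCA1 arrays it stood at 2.70 and 2.63 with COH29, against 0.06 and -0.06. The mean shift was thus 1.35 in HCC1937 against 2.67 in HCC1937+BRCA1, made up of changes of 1.21 and -0.14 in HCC1937 and of 1.8 and -0.87 in HCC1937+BRCA1. PMAIP1 against MCL1, its main partner, shifted by 0.19 in HCC1937 and by 0.73 in HCC1937+BRCA1, less than against BCL2L1 (0.71 and 2.11). In HCC1937+BRCA1 that gap is made up of the changes of 0.51 for MCL1 and -0.87 for BCL2L1. BBC3 against MCL1 shifted by -0.18 in HCC1937 and -0.13 in HCC1937+BRCA1. These shifts combine the members' values and are given as a description. Since the BH3-only genes were picked for their rise in HCC1937+BRCA1, the shifts do not give the balance of the whole family. The pick also favours larger shifts in that line, so the gap between the lines is no test of a difference. For BCL2L11 and BCL2L1 the difference of COH29 effects did not pass (limma adjusted p = 0.13 and 0.0772).

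**Figure D3:**
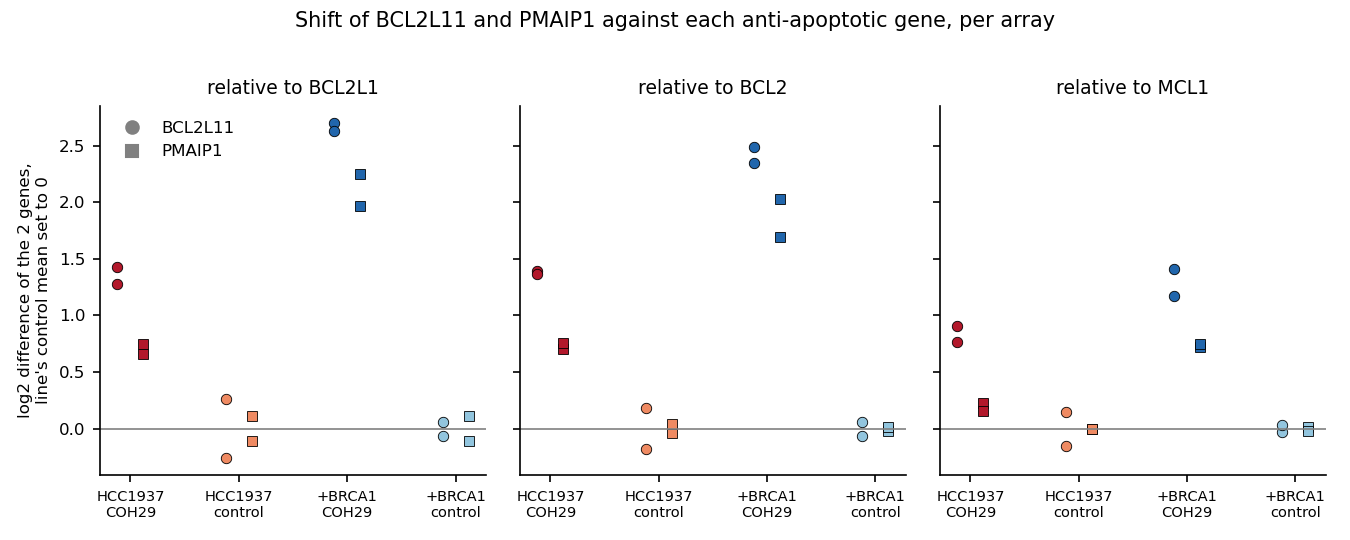
Shift of BCL2L11 (circles) and PMAIP1 (squares) relative to BCL2L1, BCL2 and MCL1 on each array (vertical axis, log2 difference of both genes with the line's control mean at 0); the groups run from HCC1937 COH29 on the left to HCC1937+BRCA1 control on the right. Against BCL2L1 the circles lie at 1.43 and 1.28 in HCC1937 with COH29 and at 2.70 and 2.63 in HCC1937+BRCA1 with COH29, and the COH29 points against MCL1 lie lower in each group.

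Whether the response differed between the lines was tested directly, as the COH29 effect in HCC1937 minus that in HCC1937+BRCA1. PMAIP1 alone among the 10 members passed, with an effect lower in HCC1937 by 0.68 ± 0.12 (difference -0.68, limma adjusted p = 0.0401). Over all genes 0.543% were called lower and 0.413% higher in this test. The PMAIP1 call was lost without any 1 of the 8 arrays (adjusted p between 0.0889 and 0.155) and without moderation (0.14), while the difference kept between -0.73 and -0.63 when 1 array was left out. The difference was 0.72 ± 0.16 for BCL2L1 (95% interval 0.37 to 1.08, adjusted p = 0.0772), -0.59 ± 0.15 for BCL2L11 (-0.93 to -0.25, adjusted p = 0.13) and 0.45 ± 0.15 for BCL2 (0.12 to 0.78, adjusted p = 0.229). These 3 intervals exclude 0, but none passed the adjustment over all genes, so the falls of BCL2L1 and BCL2 in HCC1937+BRCA1 are not shown to differ from their changes in HCC1937. The variance model with trend and robust fit called BCL2L1 (adjusted p = 0.00386) and BCL2L11 (0.0386), and leaving out dim genes called BCL2L1 (0.0352). For BBC3 (-0.19 ± 0.16), BAK1 (0.20 ± 0.14) and MCL1 (-0.14 ± 0.12) it did not pass either (adjusted p = 0.694, 0.608 and 0.698). For BMF (-0.00093 ± 0.12), BAX (-0.01 ± 0.15) and BID (-0.01 ± 0.12) the estimate was near 0, with intervals of -0.26 to 0.26, -0.36 to 0.34 and -0.29 to 0.27.

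Without drug, HCC1937 differed from HCC1937+BRCA1 in 3 members. These levels share arrays with the drug comparisons above. BID, at 11.54 in HCC1937 and 11.03 in HCC1937+BRCA1 on average, was higher in HCC1937 by 0.52 ± 0.09 (1.43-fold, limma adjusted p = 0.00171). BAX was higher there by 0.36 ± 0.11 (1.28-fold, adjusted p = 0.0338). MCL1, at 10.55 in HCC1937 and 11.18 in HCC1937+BRCA1, was lower in HCC1937 (-0.62 ± 0.09, adjusted p = 0.000631). Over all genes 14.8% were called higher and 16.4% lower in HCC1937. Arrays of the lines did not overlap for 3 members higher and 5 lower in HCC1937, beside 31.8% of all genes in each direction. The 2 genes higher became 1 without any 1 of the 4 control arrays, when the BAX call was lost (adjusted p = 0.195 and 0.066 without HCC1937 replicate 1 and 2, and 0.171 and 0.061 without HCC1937+BRCA1 replicate 1 and 2). Without moderation the adjusted p of BAX was 0.111. The other 7 members, BCL2L11 (-0.02 ± 0.11) and PMAIP1 (-0.13 ± 0.08) among them, did not pass, and BCL2L1 (-0.24 ± 0.11, adjusted p = 0.136) passed only with trend and robust fit (adjusted p = 0.0409).

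With COH29 in both lines, 4 members were higher in HCC1937 (BID, BCL2L1, BAX, BCL2) and 3 lower (PMAIP1, MCL1, BCL2L11), beside 17.4% and 14.2% of all genes. Arrays did not overlap for 5 members higher and 3 lower, beside 32.0% and 28.6% of all genes. PMAIP1 was lower by 0.81 on the log2 scale (difference -0.81 ± 0.08, limma adjusted p = 0.000102), MCL1 was at -0.77 ± 0.09 (adjusted p = 0.00019) and BCL2L11 at -0.61 ± 0.11 (adjusted p = 0.00212). BID was higher by 0.50 ± 0.09 (adjusted p = 0.00193) and BCL2L1 by 0.48 ± 0.11 (adjusted p = 0.00898). BCL2L1 and BCL2 were the called genes whose sign differed from that without drug, where they stood at -0.24 and -0.11, short of the threshold. For neither gene did the difference of COH29 effects pass. BAX and BCL2 were higher by 0.35 ± 0.11 and 0.34 ± 0.10 (adjusted p = 0.0381 and 0.0341). The 4 higher became 2 without HCC1937 COH29 replicate 1 or either HCC1937 control array, and 1 without HCC1937 COH29 replicate 2 or HCC1937+BRCA1 COH29 replicate 1. Of these, BAX and BCL2 were lost in all 5 fits (adjusted p between 0.053 and 0.232), with the differences down to 0.22 and 0.21 without HCC1937+BRCA1 COH29 replicate 1, and BCL2L1 without HCC1937 COH29 replicate 2 (0.0602) or HCC1937+BRCA1 COH29 replicate 1 (0.067). Without moderation 1 was left, and with only the 4 COH29 arrays 2. BAX was also lost after cyclic loess (0.0598).

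**Figure D4:**
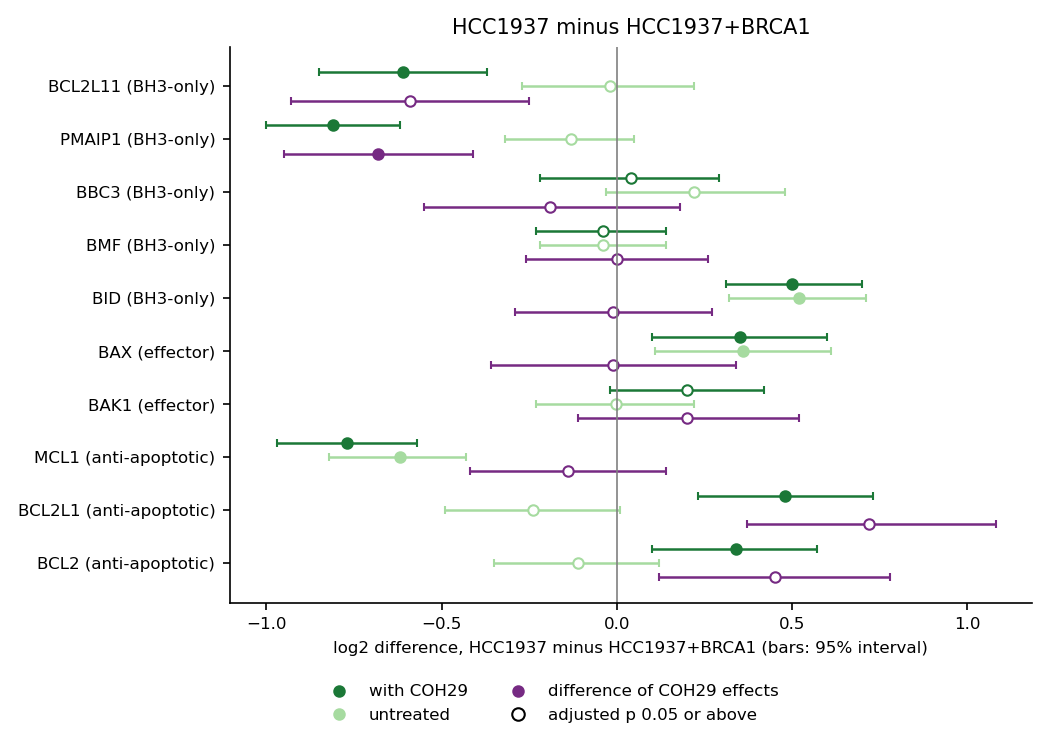
Log2 difference between the lines, HCC1937 minus HCC1937+BRCA1 (horizontal axis), of the 10 genes with COH29, untreated, and for the difference of the COH29 effects; bars are 95% intervals of the moderated fit and filled points passed an adjusted p of 0.05. BID and MCL1 differ in both states (0.50 and 0.52, -0.77 and -0.62). BCL2L1 lies at 0.48 with COH29 and at -0.24 untreated, where it did not pass. Its difference of COH29 effects (0.72) did not pass either.

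The genes whose level over the 8 arrays followed those of the most variable members most closely were found by the root mean square distance of mean-centred log2 values. For BCL2L11, with a spread of 0.79 about its mean, they were AAMDC (distance 0.094), VEGFA (0.108), the gene of the angiogenic factor VEGF-A, and ANKZF1 (0.11). VEGFA changed by 1.29 in HCC1937 and 1.79 in HCC1937+BRCA1. For PMAIP1, with a spread of 0.54, they were CCN1 (0.101), a secreted matricellular protein gene, ACACB (0.108), an acetyl-CoA carboxylase gene, and OSGIN1 (0.115). CCN1 changed by 0.60 in HCC1937 and 1.44 in HCC1937+BRCA1. The 8 arrays form 4 groups, so these distances describe 4 levels and little more.

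Among other BCL2 relatives, 11 of 12 listed genes had a single-gene probe set, and COH29 raised 3 and lowered 0 in HCC1937, with 4 and 0 in HCC1937+BRCA1. Of all genes, 10.2% and 13.6% were raised, and 12.5% and 20.1% lowered, in the same order of lines. The list's median changes were 0.15 and 0.10, beside 0.04 for all genes. BNIP3, a mitophagy receptor with a BH3-like stretch, rose by 2.21 ± 0.09 in HCC1937 and 1.74 ± 0.09 in HCC1937+BRCA1 (limma adjusted p = 3.62e-06 and 4.59e-06). Its relative BNIP3L rose by 0.92 and 0.86. HRK, a neuronal BH3-only gene, rose by 0.31 (adjusted p = 0.0257) and 0.48 (adjusted p = 0.00207). BIK, a BH3-only protein of the endoplasmic reticulum, was at 0.24 in HCC1937 (adjusted p = 0.0991) and rose by 0.62 in HCC1937+BRCA1 (adjusted p = 0.000955), a difference of -0.38 ± 0.13 that did not pass (adjusted p = 0.26). The HRK call in HCC1937 was lost without COH29 replicate 1 (adjusted p = 0.133), control replicate 1 (0.0898) or control replicate 2 (0.143) of that line, and with only its 4 arrays (0.0574).

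Downstream of the pore, 11 of 13 apoptosome and caspase genes were measured. With COH29, 2 were raised and 0 lowered in HCC1937, beside 10.2% and 12.5% of all genes. In HCC1937+BRCA1 1 was raised and 5 lowered, beside 13.6% and 20.1%. The medians were -0.05 and -0.16. In the test of the difference of effects 0 of the 11 passed, beside 0.413% of all genes called higher and 0.543% lower. APAF1, the scaffold of the apoptosome, rose by 0.57 ± 0.10 (limma adjusted p = 0.00364) and 0.43 ± 0.10 (adjusted p = 0.00937). CASP9, the caspase that APAF1 activates, rose by 0.31 ± 0.09 in HCC1937 (adjusted p = 0.0401) and was at 0.25 in HCC1937+BRCA1 (adjusted p = 0.0597). CASP6, an executioner caspase gene, fell in HCC1937+BRCA1 (-0.38, adjusted p = 0.0128) and was at -0.07 in HCC1937, with a difference of effects of 0.31 ± 0.13 that did not pass (adjusted p = 0.364). AIFM1, a flavoprotein gene of the intermembrane space, fell in HCC1937+BRCA1 (-0.26, adjusted p = 0.0344) and was at -0.11 in HCC1937, with a difference of 0.16 ± 0.12 (adjusted p = 0.634). The AIFM1 call was lost without any 1 of the 4 arrays of its line or either HCC1937 control array (adjusted p between 0.0552 and 0.154). It was also lost with median shift (-0.20, adjusted p = 0.0882), after cyclic loess (-0.15, 0.162) and with only the 4 arrays of the line (0.0652). The CASP9 call was lost without any 1 of the 4 HCC1937 arrays (COH29 replicate 1 and 2, adjusted p = 0.0563 and 0.15, and control replicate 1 and 2, 0.17 and 0.13), which left 1 gene higher. The CASP9 call in HCC1937 was also lost without moderation (adjusted p = 0.074) and, in limma with only the 4 arrays of the line, at an adjusted p of 0.0603. The 1 gene raised in HCC1937+BRCA1 became 2 without dim genes or with median shift and 3 after cyclic loess. APAF1 in HCC1937+BRCA1 was lost without COH29 replicate 2 (0.0689), which left 0 genes raised, or control replicate 2 (0.0639). For CASP6 it was lost without COH29 replicate 2 (0.0756) or control replicate 1 (0.0806). The 5 that fell in HCC1937+BRCA1 became 1 when COH29 replicate 1 or either control array of the line was left out, 2 without COH29 replicate 2, and 3 without either HCC1937 control array, after median shift, after cyclic loess or with only the 4 arrays of the line.

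Of 12 genes of transcription factors known to act on BCL2 family genes, COH29 raised 3 and lowered 0 in HCC1937 and raised 6 and lowered 2 in HCC1937+BRCA1, with medians of 0.17 and 0.20. The same shares of all genes were 10.2% and 12.5% in HCC1937 and 13.6% and 20.1% in HCC1937+BRCA1, with a median of 0.04 in each. The 3 became 5 without dim genes, with median shift, after cyclic loess and with trend and robust fit. DDIT3 (CHOP), which can induce BCL2L11 and repress BCL2, rose by 2.47 ± 0.11 and 3.40 ± 0.11, the largest change of the list in each line. JUN, an AP-1 subunit that can induce BCL2L11, rose by 1.06 and 2.02. ATF4, which can induce PMAIP1, rose by 0.55 and 0.95. CEBPB was at 0.26 in HCC1937 (limma adjusted p = 0.0594) and rose by 0.63 in HCC1937+BRCA1 (adjusted p = 0.00061), a difference of -0.37 ± 0.12 that did not pass (adjusted p = 0.243). The difference of COH29 effects was -0.93 ± 0.16 for DDIT3 (adjusted p = 0.0359) and -0.95 ± 0.12 for JUN (adjusted p = 0.0117), lower in HCC1937 for both. The DDIT3 call was lost without any 1 of the 8 arrays (adjusted p between 0.0605 and 0.137), and the JUN call without either control array of HCC1937, either COH29 array of HCC1937+BRCA1 or control replicate 1 of HCC1937+BRCA1 (between 0.051 and 0.0692). Without moderation both were lost (0.217 and 0.108). Leaving out COH29 replicate 2 of HCC1937+BRCA1 or its control replicate 1 turned the 2 lowered genes into 1.

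MCL1 protein is set by its breakdown as well as its transcript, and of 8 genes of that turnover 1 rose and 3 fell in each line, with medians of -0.01 and -0.09, beside 0.04 for all genes. Of all genes, 10.2% were raised and 12.5% lowered in HCC1937, and 13.6% and 20.1% in HCC1937+BRCA1. FBXW7, a ubiquitin ligase subunit that targets MCL1, rose by 0.44 ± 0.10 in HCC1937 (limma adjusted p = 0.0105) and 0.61 ± 0.10 in HCC1937+BRCA1 (adjusted p = 0.00123). USP13, a deubiquitinase reported to stabilise MCL1, fell by 0.57 and 0.54 on the log2 scale. CDC20, a mitotic activator of the anaphase-promoting complex, fell by 1.03 and 1.01. BTRC, a ubiquitin ligase subunit, fell by 0.32 and 0.33 (adjusted p = 0.0363 and 0.0244). The FBXW7 call in HCC1937 was lost without COH29 replicate 2 (adjusted p = 0.0568) or control replicate 1 (0.0863), which left 0 genes higher. The BTRC call was lost in HCC1937 without COH29 replicate 1 (0.196) or any 1 of the 4 control arrays (between 0.0517 and 0.164), and in HCC1937+BRCA1 without any 1 of its own 4 arrays (between 0.0537 and 0.116). With median shift (0.0525 in HCC1937 and 0.0544 in HCC1937+BRCA1) and without moderation (0.0763 and 0.055) it was lost in both lines, and with only the 4 arrays of the line in HCC1937 (0.0698).

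Of 9 genes of membrane partners of the family, COH29 raised 0 and lowered 2 in HCC1937 and raised 0 and lowered 4 in HCC1937+BRCA1, with medians of -0.14 and -0.20, beside 0.04 for all genes. Calls raised among all genes were 10.2% in HCC1937 and 13.6% in HCC1937+BRCA1, so 0 of 9 raised lies near those shares. Calls lowered among all genes were 12.5% in HCC1937 and 20.1% in HCC1937+BRCA1, so the 2 of 9 in HCC1937 lie near that share. OMA1, a stress protease of the inner membrane that acts on OPA1, fell by 0.73 and 0.88 on the log2 scale (SE 0.12, limma adjusted p = 0.0022 and 0.000505). OPA1, the fusion protein that shapes the cristae holding cytochrome c, fell in HCC1937+BRCA1 (-0.41, adjusted p = 0.00447) and was at -0.21 in HCC1937, with a difference of effects of 0.20 ± 0.12 that did not pass (adjusted p = 0.518). MFN1, a fusion protein of the outer membrane, fell in HCC1937+BRCA1 (-0.43, adjusted p = 0.00544) and was at -0.26 in HCC1937, with a difference of 0.16 ± 0.12 (adjusted p = 0.652). MFN2, its relative, fell by 0.28 and 0.30 (adjusted p = 0.0413 and 0.0225). The MFN2 call was lost in HCC1937 without any 1 of the arrays other than HCC1937 COH29 replicate 2 (between 0.0566 and 0.206), which left 1 gene lower there, and in HCC1937+BRCA1 without any 1 of its own 4 arrays (between 0.0735 and 0.0918). It was also lost in HCC1937 with median shift (0.0535) or only the 4 arrays of the line (0.0815), and in HCC1937+BRCA1 after cyclic loess (0.0706). With trend and robust fit 4 were lowered in HCC1937.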

How the data were processed

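RNA of 8 samples was hybridised to 1 Affymetrix array each. The table deposited by the authors gives log2 intensity for 33297 probe sets, made with RMA and Partek, per the submitters' processing notes, with no version given. RMA corrects background, equalises the arrays' distributions and summarises probes on the log2 scale, which compresses folds of dim genes. The platform annotation gave 19460 probe sets 1 gene, and the brightest per gene was kept (18417 genes; each of the 10 members had 1 such probe set). A group-means model over all 8 arrays was fitted with limma (version 3.58.1, under R 4.3.3; moderated statistics on 4 residual degrees of freedom). A call needs an adjusted p (Benjamini-Hochberg, over all genes) under 0.05; intervals are those of the moderated fit. The fit was also run on simulated normal noise, drawn with the fitted spreads, to which known changes were added. Such a run checks the code and not how well the model suits these arrays. Detection calls, scan batches and scanner files were not used here. No genome build was named for the array, and coordinates are RefSeq's (GRCh38.p14).

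The members and gene lists were chosen with earlier results of these data known. Named were all members, up to 4 called genes per list with the smallest p for the mean drug effect of both lines, and 3 near genes for the 2 members with the widest group means. Alternatives were a filter on dim genes, median shift, cyclic loess, trend and robust, no moderation, a block for the replicate number, averaging probe sets per gene, only the groups compared, and leaving out each array. A crossed replicate block and the alternatives for lists were added after seeing the data. Python 3.11.15 was used with pandas 2.3.3, and figures were drawn with matplotlib 3.10.9.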

Additional observations from a re-analysis of the deposited data

Results flagged for a closer look

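The COH29 effect on PMAIP1 differed between the lines in a test of the difference itself, HCC1937 minus HCC1937+BRCA1 (-0.68 ± 0.12 on the log2 scale, limma adjusted p = 0.0401). The gene rose by 0.56 in HCC1937 and by 1.24 in HCC1937+BRCA1, and in each line both COH29 arrays lay above both controls. Leaving out any 1 array ended this call.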

How the results depend on the processing

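Precision is limited by having 2 arrays in each group, and folds of dim genes such as BCL2 are compressed by background. Deviations of same-numbered arrays correlated at 0.26 between COH29 and control of HCC1937+BRCA1, at 0.037 between those of HCC1937 and at -0.204 to -0.086 between the lines. Not every pair passed 0.1, so the numbers were not taken to pair the samples. With the replicate block, members called were 3 higher and 0 lower in HCC1937, 4 and 3 in HCC1937+BRCA1, 0 and 0 for the difference of effects (in place of 0 and 1), 2 and 1 untreated, and 3 and 3 with COH29. The block ended the calls of BID in HCC1937+BRCA1 (limma adjusted p = 0.0703), PMAIP1 (0.0735) and DDIT3 (0.0584) for the difference, BCL2 with COH29 (0.0533), AIFM1 in HCC1937+BRCA1 (0.0552) and untreated (0.0577), and MFN2 (0.0628) and BTRC (0.0563) in HCC1937. With numbers crossed between the lines 1 was lower in HCC1937.

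Counts of members changed as follows. In HCC1937 1 was lower without dim genes and with trend and robust. In HCC1937+BRCA1 2 were lower after cyclic loess and without moderation (2 to 4 when 1 array was left out). For the difference of effects 1 was higher without dim genes and with trend and robust, 2 were lower with trend and robust and 0 without moderation, and 0 were lower when any 1 array was left out. Between untreated lines 1 was higher without moderation (1 to 2 when 1 array was left out) and 2 lower with trend and robust. With COH29, 1 was higher without moderation and 2 with only the arrays compared (1 to 4 when 1 array was left out). The cause was not tested.

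Estimates that changed sign had not passed the threshold. They were the difference of effects of BMF (0.03 after cyclic loess, -0.05 to 0.05 when 1 array was left out), BAX (-0.14 to 0.12) and BID (-0.07 to 0.05), the untreated line difference of BAK1 (0.00068 with median shift, 0.02 after cyclic loess, -0.07 to 0.07) and BCL2L11 (-0.17 to 0.12), and, with COH29, that of BBC3 (-0.06 to 0.13) and BMF (-0.09 to 0.01). CASP6 in HCC1937 ran from -0.16 to 0.03. With 1 array left out, 346 member values kept direction and side of the threshold, 37 lost the call and 17 changed sign, and under the other alternatives 404 kept both, 19 lost the call, 14 gained it and 3 changed sign.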

Other observations

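Some genes around the family also differed between the untreated lines. BNIP3 averaged 10.26 in HCC1937 control and 11.16 in HCC1937+BRCA1 control (log2 intensity, difference -0.90 ± 0.09, limma adjusted p = 8.45e-05). FBXW7 was lower in HCC1937 (8.08 against 8.75, -0.67 ± 0.10, adjusted p = 0.000679), as were MFN1 (9.82 against 10.39, -0.57 ± 0.09, adjusted p = 0.00108) and CASP6 (7.82 against 8.36, -0.53 ± 0.09, adjusted p = 0.00219). BTRC (8.59 against 7.98, 0.61 ± 0.09, adjusted p = 0.000994) and JUN (9.78 against 9.37, 0.41 ± 0.09, adjusted p = 0.00518) were higher in HCC1937. These 6 calls, and that of CDC20 (-0.47 ± 0.09, adjusted p = 0.00437), held under each of the alternatives that were run. HRK (0.37 ± 0.08), BIK (0.35 ± 0.09), AIFM1 (0.26 ± 0.08) and USP13 (-0.38 ± 0.09) were also called, but these calls did not hold under every alternative. Over all genes 14.8% were called higher and 16.4% lower in HCC1937.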
